A study of Mus musculus with 9 samples.

Results

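The genes of glucose uptake, glycolysis and pyruvate fate were followed in endothelial cells of the mouse bone marrow. The set held 33 genes named by symbol, and all 33 were found among the 52183 genes of the deposited table. Aldoa had 2 rows, of which the one with the higher mean (ENSMUSG00000030695) was taken. The values are FPKM, fragments scaled to gene length and library depth, so that levels of different genes can be set side by side per length. Averaged over the 9 libraries, 28 of the 33 genes reached 1 FPKM, and these were tested. The other 5 (Hk2, Pfkfb1, Pfkfb2, Aldoc and Eno2) never exceeded 1.2 FPKM in a library.

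The groups were 18-month-old mice labelled as Thbs1 knockouts, 18-month-old controls and 3-month-old controls, with 3 libraries each. Thbs1 encodes thrombospondin-1, a secreted protein of the matrix that limits vessel growth. All mice received an antibody to VE-cadherin, a junction protein of endothelial cells, by injection behind the eye 10 minutes before death, and the endothelial cells of the long bones were then sorted by flow cytometry. The labels name no strain, sex, allele or driver of the deletion, nor do they state whether the libraries are from different mice. The p-values below therefore reflect only how these libraries vary.

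Thbs1 itself (GRCm38 chromosome 2, 118111876 to 118127133) went against the label. Its levels were 25.63, 19.45 and 19.84 FPKM in the libraries labelled Thbs1 knockout, against 0.67, 0.82 and 1.17 FPKM in aged controls and 4.55, 3.89 and 4.18 FPKM in young controls. Exon usage was not analysed here, so the label could not be checked further, and every direction given below for the libraries labelled Thbs1 knockout carries this limit. Depth, recovered from the values, was 27230000 to 30410000 fragments in the libraries labelled Thbs1 knockout. In aged controls it was 22160000 to 24580000 fragments and in young controls 22860000 to 23890000. All libraries labelled Thbs1 knockout were thus deeper than every control, and the part of depth in the differences below was not tested. The 8 endothelial markers used for the check, among them Cdh5 and Pecam1, were all above 1 FPKM, and their sum ran from 1458 to 1548 FPKM in the libraries labelled Thbs1 knockout, from 1726 to 1789 in aged controls and from 1544 to 1560 in young controls. The sum was highest in aged controls through Cldn5, at 476.1 ± 81.3 FPKM in the libraries labelled Thbs1 knockout, 810.3 ± 49.6 FPKM in aged controls and 483.6 ± 20.0 FPKM in young controls (SD, n = 3 each), while 6 of the 8 markers, Cdh5 and Pecam1 among them, had a lower mean in aged than in young controls. Between aged and young controls Cldn5 was called as higher and Erg as lower (limma adjusted p = 0.0232 and 0.0447). Library 2 of those labelled Thbs1 knockout stood apart in the glycolytic genes. It was the highest of its group in 20 of the 28 tested genes (71.4%), against 37.2% of all tested genes, and values that rest on it are given below with and without it. In bulk RNA, fewer cells of a type and less RNA per cell cannot be told apart.

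Glycolysis splits glucose into pyruvate and yields ATP without oxygen. Glucose enters through transporters of the SLC2A family, is trapped by hexokinase, passes the regulated step of phosphofructokinase, and leaves the pathway as lactate through lactate dehydrogenase and the monocarboxylate transporters, or enters mitochondria through the pyruvate carrier and the pyruvate dehydrogenase complex, which pyruvate dehydrogenase kinases switch off. Endothelial cells are known to draw most of their ATP from glycolysis even with oxygen at hand, and in mice the activator enzyme PFKFB3 is needed for normal vessel sprouting. Hypoxia-inducible factor and Myc are known activators of many of these genes.

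In these cells 1 relative dominated most steps. Slc2a1, the basal glucose transporter GLUT1 (ENSMUSG00000028645), averaged 31.9 FPKM over the 9 libraries, against 1.17 FPKM for Slc2a3, the neuronal-type transporter. Hk1, the hexokinase of most tissues, averaged 13.0 FPKM, and Hk2, the insulin-responsive form of muscle, 0.352 FPKM. Aldoa, the aldolase of muscle and most tissues, averaged 111.9 FPKM and the brain form Aldoc 0.00333. Eno1, the common enolase, averaged 55.1 FPKM, and the neuronal Eno2 0.0389. Lactate dehydrogenase was mostly Ldha at 152.3 FPKM, with Ldhb at 31.2, and lactate transport mostly Slc16a1 (MCT1) at 78.9 FPKM, with Slc16a3 (MCT4) at 2.18. The highest of the 33 was Pkm, which makes pyruvate, at 184.3 FPKM, followed by Gapdh at 153.5 FPKM. The pyruvate dehydrogenase kinases were the exception, since Pdk1, Pdk4, Pdk2 and Pdk3 averaged 16.0, 15.3, 13.3 and 9.45 FPKM with no dominant form.

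**Figure D1:**
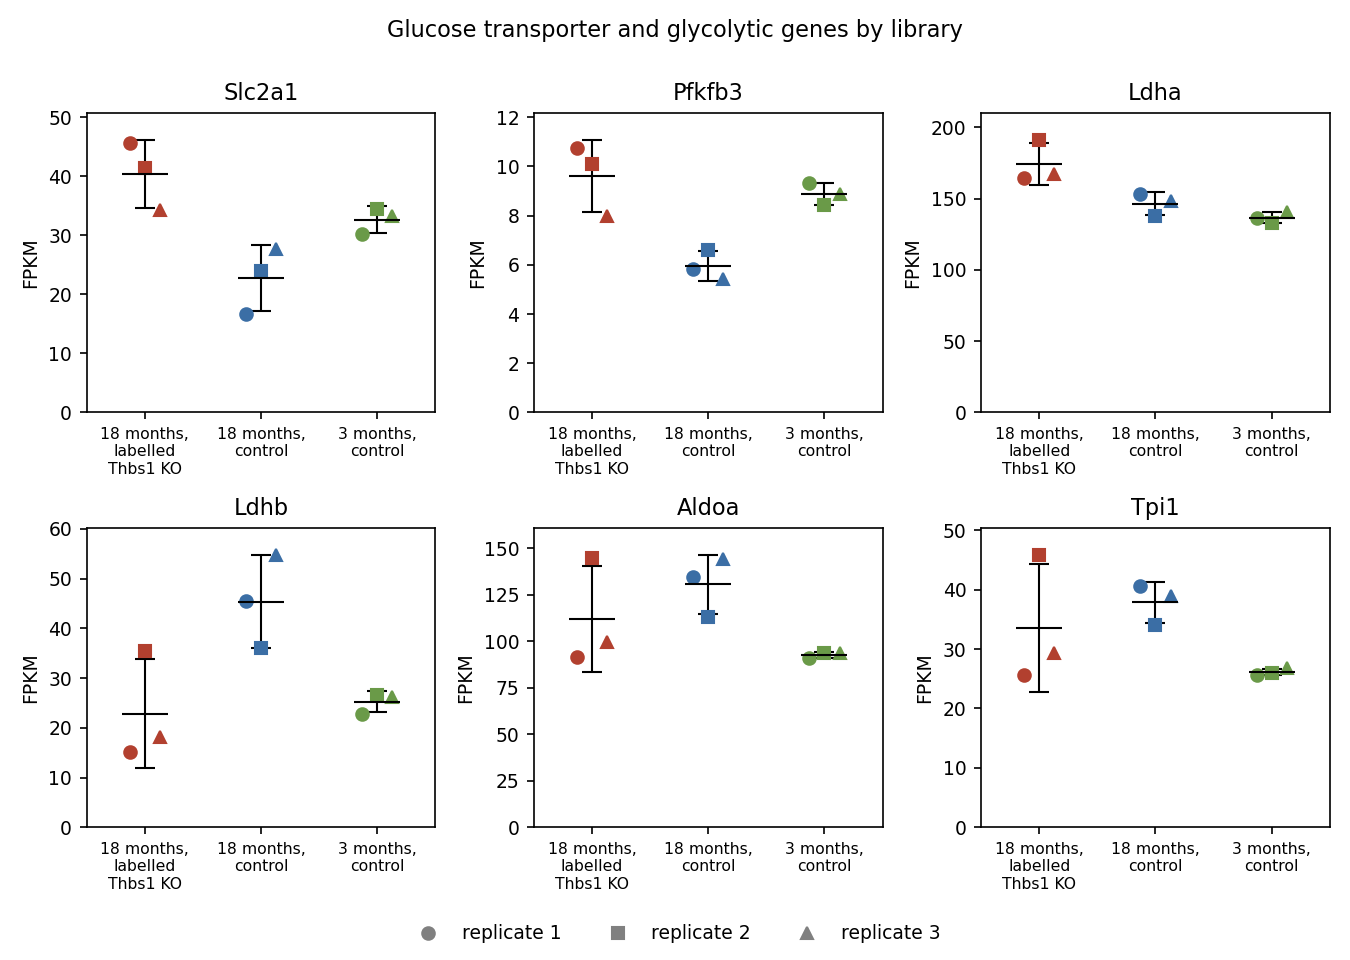
FPKM (y axis) of 6 genes in each library of 3 groups (x axis), with replicates as marks and mean ± SD as bars (n = 3 each). Slc2a1 and Pfkfb3 were higher in all 3 libraries labelled Thbs1 knockout than in any aged control, and for Ldhb, Aldoa and Tpi1 library 2 of those labelled Thbs1 knockout lay far above the other 2 of its group.

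The first gene that passed the test between the libraries labelled Thbs1 knockout and the aged controls was Slc2a1, which brings glucose into the cell. It stood at 45.62, 41.33 and 34.29 FPKM in the libraries labelled Thbs1 knockout, at 16.59, 23.98 and 27.65 FPKM in aged controls and at 30.17, 34.51 and 33.29 FPKM in young controls. All 3 libraries labelled Thbs1 knockout were above all 3 aged controls, and the young controls lay between them, overlapping the libraries labelled Thbs1 knockout. The group means were 40.4 ± 5.72 FPKM in the libraries labelled Thbs1 knockout and 22.7 ± 5.63 FPKM in aged controls (SD, n = 3 each), a difference of 77.7%. Fold changes are given as log2 of FPKM + 1, a scale that makes changes of low genes look smaller, and that of Slc2a1 was 0.82 ± 0.17 (SE, limma adjusted p = 0.0288). Between aged and young controls the means were 22.7 ± 5.63 and 32.7 ± 2.24 FPKM (SD, n = 3 each, log2 fold change -0.53 ± 0.17 SE, limma adjusted p = 0.0953), without overlap but short of the threshold of 0.05.

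The second was Pfkfb3 (ENSMUSG00000026773), which makes the sugar bisphosphate that activates phosphofructokinase. It stood at 10.77, 10.11 and 7.98 FPKM in the libraries labelled Thbs1 knockout, at 5.85, 6.60 and 5.42 FPKM in aged controls and at 9.32, 8.42 and 8.89 FPKM in young controls. The 3 aged controls were below every library of the other 2 groups. Pfkfb3 was the single gene of the set called in both comparisons that involve the aged controls. In aged controls it fell by 32.9% against young controls (log2 fold change of -0.51 with an SE of 0.12, limma adjusted p = 0.0491), and in the libraries labelled Thbs1 knockout it rose by 61.5% against aged controls (log2 fold change of 0.60 with an SE of 0.12, limma adjusted p = 0.0253). The same 3 aged controls stand in both comparisons, so a low value there moves both. Pfkfb3 lies on chromosome 2, as Thbs1 does, 106.6 Mb away.

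The calls depended on the libraries in the fit. In the fit of the libraries labelled Thbs1 knockout and the aged controls alone, both higher calls were lost (limma adjusted p = 0.1015 for Slc2a1 and 0.1016 for Pfkfb3), and 0.949% of all tested genes were called as higher and 0.314% as lower. With the replicate number as a block, Slc2a1 in this comparison had an adjusted p of 0.0523, and Pfkfb3 between aged and young controls 0.0664. For Slc2a1 between the libraries labelled Thbs1 knockout and the aged controls, the limma adjusted p was 0.12 without library 1 of those labelled Thbs1 knockout, and 0.052, 0.0536 and 0.0552 without young control 1, 2 or 3. For Pfkfb3 in the same comparison it was 0.0994 without library 1 of those labelled Thbs1 knockout, 0.0546 without aged control 1, 0.0546 without aged control 3 and 0.052 without young control 3. The lower Pfkfb3 of aged against young controls lost its call without aged control 1, 2 or 3 (adjusted p = 0.0711, 0.054 and 0.0977), without young control 1, 2 or 3 (adjusted p = 0.175, 0.141 and 0.142) and without library 3 of those labelled Thbs1 knockout (adjusted p = 0.0548), and the direction was the same in each fit. Neither gene lost its higher call when library 2 of those labelled Thbs1 knockout was left out (adjusted p = 0.0433 for Slc2a1 and 0.0386 for Pfkfb3).

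The windows around the start sites of these 2 genes are printed because both genes differed in the same comparison and because both window sets hold the core of the hypoxia response element, which hypoxia-inducible factor binds. Sequences are RefSeq windows on GRCm38.p6 from 250 bases before to 50 bases after an annotated start, in the direction of the gene, with ACGTG on either strand in capitals. The Slc2a1 window spans chr4:119108495-119108794 on the plus strand. The Pfkfb3 windows lie on the minus strand, at chr2:11502041-11502340 for an internal start and chr2:11553880-11554179 for the start farthest upstream.
Slc2a1: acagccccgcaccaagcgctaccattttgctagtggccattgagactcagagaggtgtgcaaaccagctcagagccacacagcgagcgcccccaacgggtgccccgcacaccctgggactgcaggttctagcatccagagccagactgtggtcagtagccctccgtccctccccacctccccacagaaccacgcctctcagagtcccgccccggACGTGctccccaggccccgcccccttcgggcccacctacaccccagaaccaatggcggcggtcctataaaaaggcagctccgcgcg
Pfkfb3 internal start: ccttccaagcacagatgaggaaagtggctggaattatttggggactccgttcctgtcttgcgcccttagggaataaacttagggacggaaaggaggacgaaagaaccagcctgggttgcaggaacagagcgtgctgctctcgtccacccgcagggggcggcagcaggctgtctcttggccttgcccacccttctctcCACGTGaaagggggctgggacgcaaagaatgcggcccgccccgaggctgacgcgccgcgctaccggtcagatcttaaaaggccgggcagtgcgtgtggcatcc
Pfkfb3 upstream start: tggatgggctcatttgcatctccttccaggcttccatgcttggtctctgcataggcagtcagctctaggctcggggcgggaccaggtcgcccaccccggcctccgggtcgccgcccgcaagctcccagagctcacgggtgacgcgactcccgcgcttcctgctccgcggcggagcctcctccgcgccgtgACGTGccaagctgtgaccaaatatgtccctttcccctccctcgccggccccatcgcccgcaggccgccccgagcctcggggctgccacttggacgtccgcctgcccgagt

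Slc2a1 held ACGTG once, at position -36 from the start, and the upstream Pfkfb3 window once, at position -60. The internal Pfkfb3 window held the palindrome CACGTG, the E-box that Myc and related factors bind, which contains ACGTG on both strands (positions -53 and -52). Of the 33 genes 32 had a window, and ACGTG on either strand stood in 22 of their 52 windows (42.3%), against 26.1% of the windows of all tested genes and 19.6% of all windows in the table. CACGTG stood in 11.5% of the 52 windows, against 10.1% of the windows of tested genes and 7.15% of all. An upstream Ldha window held 5 matches to ACGTG and the Ldhb window held none. These are matches of letters in fixed windows and do not show binding.

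Between the libraries labelled Thbs1 knockout and the aged controls, the question the design poses is what differs at the same age between the labelled genotype and controls. Of the 28 tested genes 2 were called as higher (7.14%), Slc2a1 and Pfkfb3, against 2.78% of all tested genes, and 0 were called as lower, against 2.01%. The median log2 fold change of the 28 was -0.03, against 0.00 over all tested genes. Groups did not overlap for 4 genes that were higher (14.3%), against 12.1% of all tested genes, and for 2 that were lower (7.14%), against 11.1%. The 4 were Slc2a1, Pfkfb3, Ldha and Slc16a1, and the 2 were Ldhb and Pdha1. The glucose transporter and the maker of the phosphofructokinase activator passed the test, and the enzymes from Hk1 to Pkm did not.

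**Figure D2:**
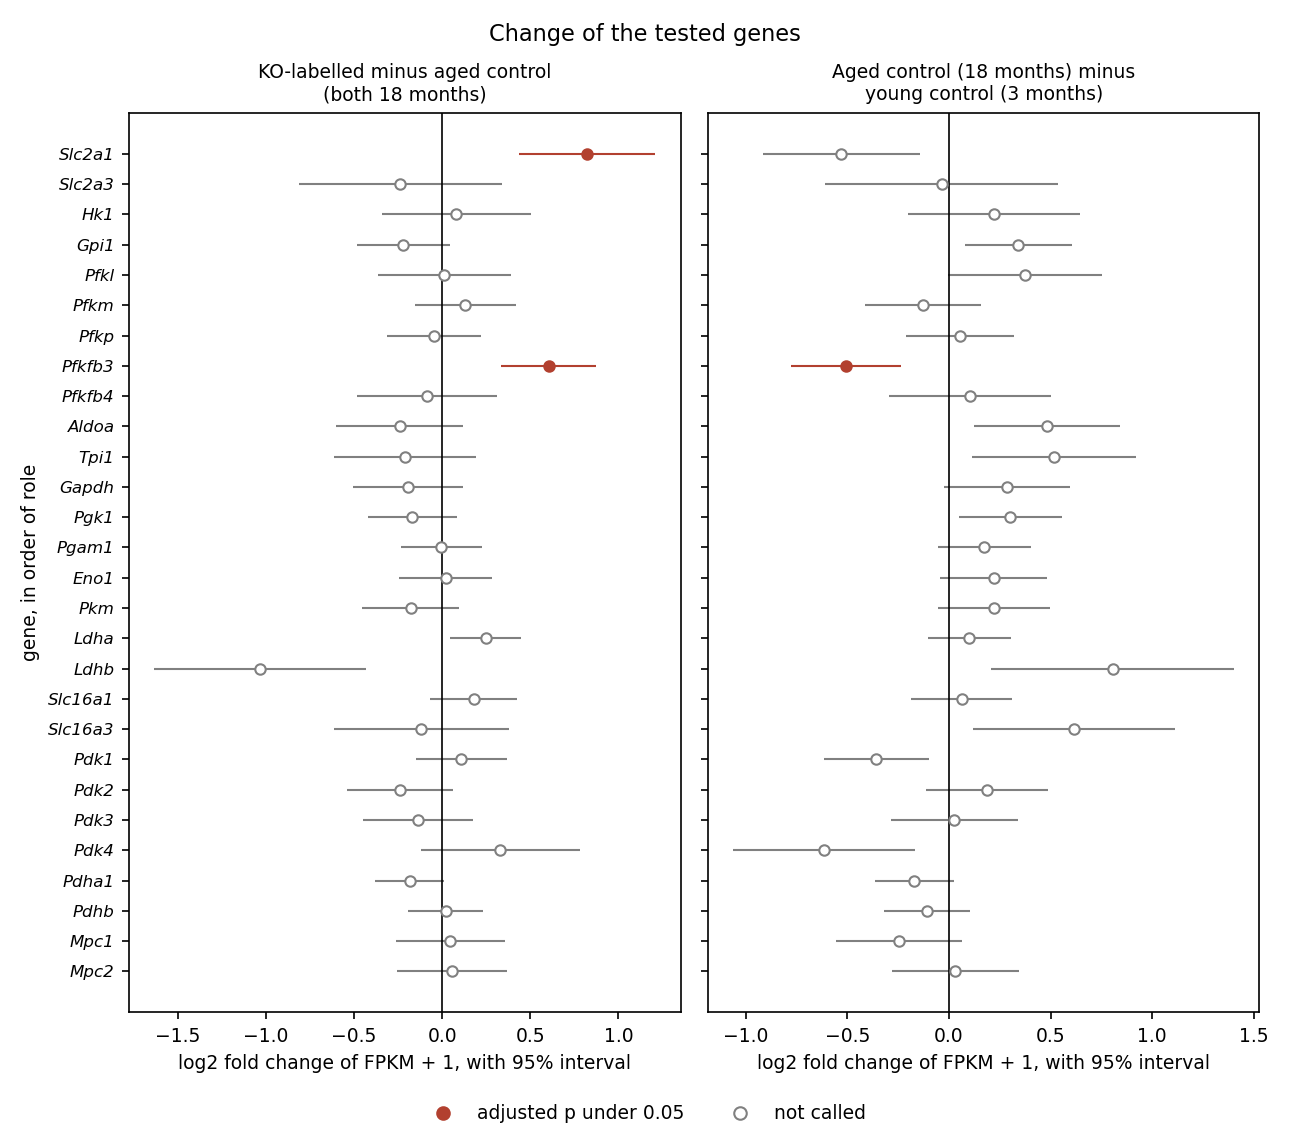
Log2 fold change of FPKM + 1 with its 95% interval (x axis) for the 28 tested genes in order of role (y axis), for libraries labelled Thbs1 knockout minus aged controls (left) and aged controls minus young controls (right). Filled points passed the limma test at an adjusted p under 0.05, namely Slc2a1 and Pfkfb3 on the left and Pfkfb3 on the right.

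The lactate genes had different orders of groups. Ldha, the subunit that favours making lactate, stood at 164.43, 191.10 and 166.88 FPKM in the libraries labelled Thbs1 knockout, at 153.54, 137.62 and 148.18 FPKM in aged controls and at 136.13, 132.68 and 140.46 FPKM in young controls. The libraries labelled Thbs1 knockout were above all others, and the test was not passed (log2 fold change over the aged controls 0.25 ± 0.09 SE, limma adjusted p = 0.139). Ldhb, the subunit of oxidative tissues, stood at 15.07, 35.51 and 18.08 FPKM in the libraries labelled Thbs1 knockout, at 45.42, 35.99 and 54.77 FPKM in aged controls and at 22.86, 26.63 and 26.24 FPKM in young controls. Libraries 1 and 3 of those labelled Thbs1 knockout were the lowest of all, and library 2 lay beside the lowest aged control. The means of Ldhb were 22.89 ± 11.04 FPKM in the libraries labelled Thbs1 knockout and 45.4 ± 9.39 FPKM in aged controls (SD, n = 3 each, log2 fold change -1.03 ± 0.27 SE, limma adjusted p = 0.0579). At an unadjusted p under 0.05 in limma, Slc2a1, Pfkfb3 and Ldha were higher in this comparison (3 of 28), against 1500 of all 11796 tested genes. Ldhb alone was lower (1 of 28), a smaller share than the 11.3% of all tested genes. Limma voom on recovered fragments called Ldhb as lower (adjusted p = 0.0395), with 2.23% of all genes called as lower.

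Slc16a1, the main exporter and importer of lactate here, stood at 83.06, 96.34 and 81.10 FPKM in the libraries labelled Thbs1 knockout, at 74.78, 77.03 and 77.41 FPKM in aged controls and at 82.35, 74.68 and 63.51 FPKM in young controls. It was above the aged controls in 3 of 3 libraries labelled Thbs1 knockout, short of the threshold (limma adjusted p = 0.358). Slc16a3, known as the exporter of strongly glycolytic cells, stood at 2.34, 3.69 and 1.42 FPKM in the libraries labelled Thbs1 knockout, at 2.04, 2.85 and 3.14 FPKM in aged controls and at 1.36, 1.41 and 1.38 FPKM in young controls. The libraries labelled Thbs1 knockout spanned the range of the aged controls (adjusted p = 0.785).

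Library 2 of those labelled Thbs1 knockout stood apart along the trunk of the pathway. Summed over the 15 genes of the steps from hexokinase (Hk1 and Hk2) to Pkm, without the PFKFB genes, the FPKM were 578.2, 793.2 and 601.3 in libraries 1 to 3 of those labelled Thbs1 knockout, 721.1, 675.1 and 789.6 in aged controls and 584.0, 581.6 and 594.9 in young controls. Libraries 1 and 3 lay near the young controls and library 2 above every aged control. The FPKM of all genes summed to 307127, 333548 and 312776 in libraries 1 to 3 of those labelled Thbs1 knockout, and the part of that total was not tested. Without library 2, 5 genes of the set were called between the libraries labelled Thbs1 knockout and the aged controls, against 2 with it. Slc2a1 and Pfkfb3 were higher, against 5.05% of all tested genes in that fit. Aldoa (log2 fold change -0.44, limma adjusted p = 0.0478), Tpi1 (-0.45, adjusted p = 0.0382) and Ldhb (-1.39, adjusted p = 0.00323) were lower, against 4.77%. Library 2 was singled out because it was high in the set, these genes among them, so leaving it out lowers their mean by selection. These adjusted p are therefore no independent test. Without library 1 instead, the limma adjusted p of Aldoa, Tpi1 and Ldhb were 0.791, 0.938 and 0.196, and without library 3 they were 0.67, 0.771 and 0.18.

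Of 7 lists of markers of other cells, 4 had their highest sum of the libraries labelled Thbs1 knockout in library 2 (erythroid, B and plasma, megakaryocyte, and T and NK cells). Of the 5 T and NK markers 0 averaged at least 1 FPKM. Their sums were 0.24 and 0.72 FPKM in libraries 1 and 3 and 1.44 FPKM, all of it Nkg7, in library 2. The stromal and the monocyte and macrophage lists were lowest there, at 35.6 and 555.5 FPKM, against 43.6 to 49.1 and 579.8 to 615.0 FPKM in libraries 1 and 3. The neutrophil list summed to 32.8, 107.5 and 116.2 FPKM in libraries 1 to 3. The 8 erythroid markers summed to 45.2, 181.6 and 67.4 FPKM in libraries 1 to 3 of those labelled Thbs1 knockout, to 55.8 to 184.5 FPKM in aged controls and to 114.7 to 118.6 FPKM in young controls, and 0 of the 5 tested were called in either comparison with the aged controls. The 8 markers of B and plasma cells summed to 4.60, 1787 and 533.0 FPKM in libraries 1 to 3 of those labelled Thbs1 knockout, to 477.9 to 3018 FPKM in aged controls and to 6.15 to 517.2 FPKM in young controls. Most of that was Igkc, the antibody light chain, at 0.87, 1618 and 500.1 FPKM in the libraries labelled Thbs1 knockout, while the B cell surface gene Ms4a1 was at 0 in 4 of the 9 libraries. Of these 8 markers 5 were tested and 0 called. The sinusoidal gene Fcgr2b stood at 41.97, 180.85 and 47.76 FPKM in the libraries labelled Thbs1 knockout and at 316.01, 362.27 and 233.65 FPKM in aged controls. The part of these differences in the glycolytic values was not tested.

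**Figure D3:**
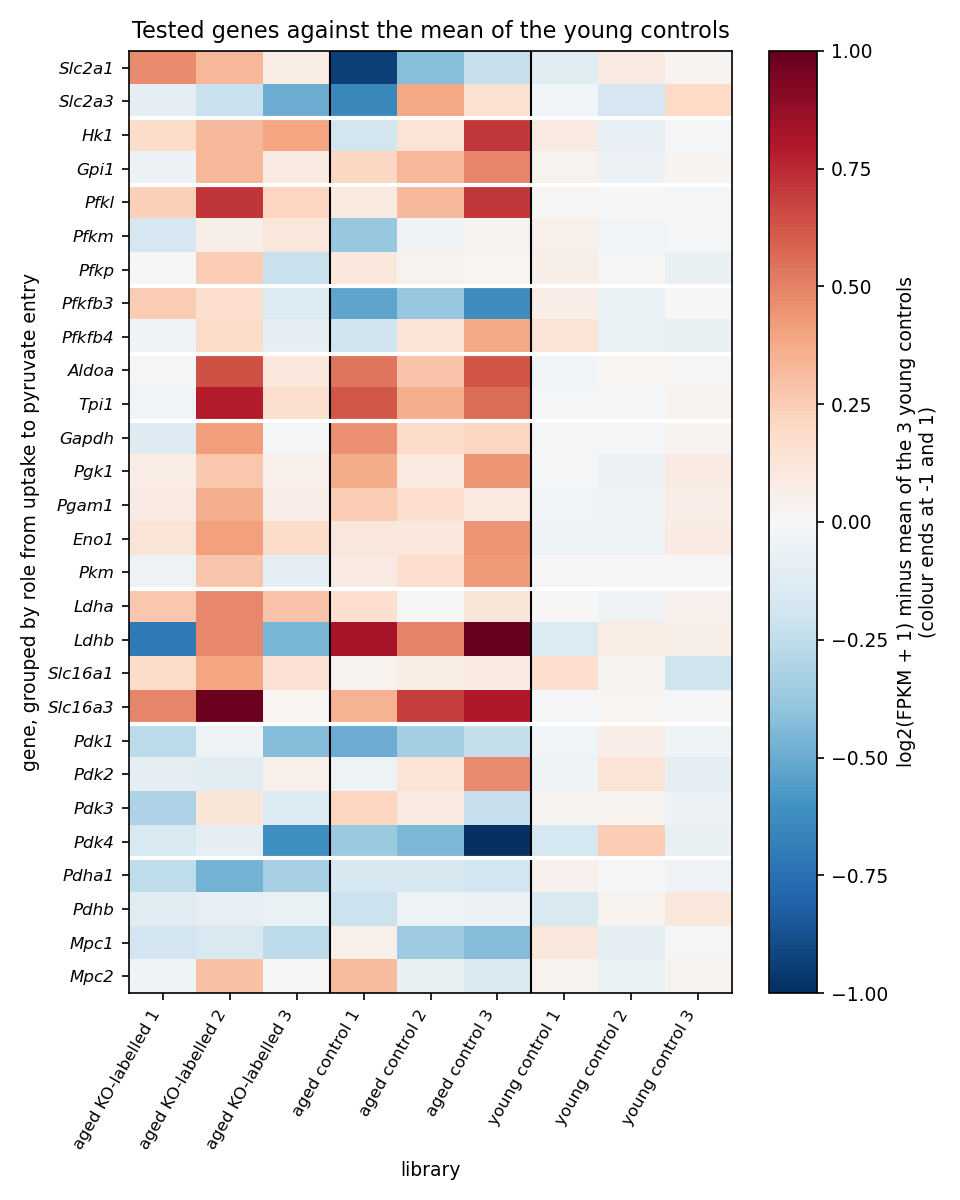
Log2(FPKM + 1) of the 28 tested genes (y axis, grouped by role) in each library (x axis), minus the mean of the 3 young controls, with colour ending at -1 and 1. Aldoa and Tpi1 were above the young mean in the 3 aged controls and in library 2 of those labelled Thbs1 knockout, and Pfkfb3 and Slc2a1 were below it in all 3 aged controls.

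Between aged and young controls, which asks how these cells differ with age, Pfkfb3 was the single gene called. Of the 28 tested genes 0 were called as higher, against 1.2% of all tested genes, and 1 as lower (3.57%), against 2.8%. At an unadjusted p under 0.05, Gpi1, Aldoa, Tpi1, Pgk1, Ldhb and Slc16a3 were higher (6 genes), against 10.2% of all tested genes, and Slc2a1, Pfkfb3, Pdk1 and Pdk4 lower (4 genes), against 17.4%. Of the 28, 11 were higher without overlap between the groups (39.3%), against 13.9% of all tested genes, and 5 were lower without overlap (17.9%), against 21.8%. The median log2 fold change was 0.10, against -0.05 over all tested genes. In a scaling of the libraries by median ratios the medians were 0.14 and 0.00, and 0 genes of the set were called.

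The trunk enzymes were the larger share of those that did not overlap. Aldoa, which splits the sugar bisphosphate, stood at 91.90, 144.90 and 99.86 FPKM in the libraries labelled Thbs1 knockout, at 134.55, 113.14 and 144.26 FPKM in aged controls and at 90.83, 93.92 and 93.60 FPKM in young controls. Tpi1, which interconverts its triose products, stood at 25.56, 45.85 and 29.30 FPKM in the libraries labelled Thbs1 knockout, at 40.65, 33.97 and 39.01 FPKM in aged controls and at 25.68, 25.91 and 26.74 FPKM in young controls. Every aged control was above every young control for both genes, and the young controls lay closest together. The log2 fold change of aged over young controls was 0.48 ± 0.16 (SE) for Aldoa and 0.52 ± 0.18 (SE) for Tpi1, with limma adjusted p of 0.0992 and 0.11. For Ldhb it was 0.80 ± 0.27 (SE, adjusted p = 0.0989).

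Both enzymes and Ldhb passed the test in the fit of the aged and young controls alone, with adjusted p of 0.046 for Aldoa, 0.0305 for Tpi1 and 0.0336 for Ldhb. In that fit 2.19% of all tested genes were called as higher and 3.88% as lower, against 1.2% and 2.8% in the fit of all groups. They also passed in the fit of all groups without library 2 of those labelled Thbs1 knockout, with adjusted p of 0.0297, 0.0214 and 0.0222. There 3.1% of all tested genes were called as higher and 5.71% as lower, Pfkfb3 among them. The aged and young values are the same in these fits, and the estimate of the spread differs. Library 2 was singled out because it was high in the set, these genes among them, so leaving it out narrows their spread by selection. Without library 1 of those labelled Thbs1 knockout instead, the limma adjusted p were 0.0808, 0.0782 and 0.0761.

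In the lower part of glycolysis the aged controls were also above the young controls. Gapdh, the dehydrogenase of the pathway, ranged from 127.3 to 186.1 FPKM in the libraries labelled Thbs1 knockout, from 159.0 to 191.4 FPKM in aged controls and from 137.5 to 142.1 FPKM in young controls. Pkm stood at 166.12, 208.60 and 161.30 FPKM in the libraries labelled Thbs1 knockout, at 181.81, 193.26 and 231.22 FPKM in aged controls and at 172.53, 172.16 and 171.56 FPKM in young controls. Eno1 stood at 53.62, 65.57 and 55.92 FPKM in the libraries labelled Thbs1 knockout, at 53.05, 53.02 and 66.88 FPKM in aged controls and at 47.74, 47.60 and 52.08 FPKM in young controls. For these 3 and for the kinase Pgk1 and the mutase Pgam1, all aged controls were above all young controls, with log2 fold changes of 0.17 to 0.30 and adjusted p of 0.127 to 0.297. Eno2 was listed at 0 to 0.02 FPKM in the libraries labelled Thbs1 knockout, at 0 to 0.14 in aged controls and at 0.02 to 0.1 in young controls. Aldoc was listed at 0 in 7 of the 9 libraries and at no more than 0.02 FPKM in the others. Counting of reads that match several places is not given, and 12 pseudogene rows named for these genes reached at most 1.57 FPKM, so values of genes with near-identical copies, such as Gapdh, Ldha and Eno1, are uncertain.

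The sum over the same 15 genes from hexokinase to Pkm was 728.6 ± 57.6 FPKM in aged controls and 586.8 ± 7.08 FPKM in young controls (SD, n = 3 each), a difference of 24.2%. The sums did not overlap, and the two-sided exact permutation test gave p = 0.1, the smallest that 3 against 3 libraries allow. Against the aged controls, the libraries labelled Thbs1 knockout had 657.5 ± 118.0 FPKM (SD, n = 3, exact permutation p = 0.4). The FPKM of all genes summed to 328500 to 348398 in aged controls and to 311601 to 314382 in young controls. The part of that total in the 24.2% was not tested. Markers of other cells differed between aged and young controls as well. The 8 stromal markers summed to 41.7 to 51.1 FPKM in aged controls and to 80.3 to 113.7 FPKM in young controls, with 3 of the 5 tested called as lower in aged controls. The 8 neutrophil markers summed to 12.7 to 285.3 FPKM in aged controls and to 6.10 to 139.6 FPKM in young controls, with 0 of 8 called. Their part in these differences was not tested.

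The entry steps showed other orders. Slc2a3 stood at 1.14, 0.95 and 0.61 FPKM in the libraries labelled Thbs1 knockout, at 0.46, 1.97 and 1.53 FPKM in aged controls and at 1.23, 1.03 and 1.61 FPKM in young controls. Hk1, which phosphorylates glucose, stood at 12.87, 14.30 and 15.11 FPKM in the libraries labelled Thbs1 knockout, at 9.79, 12.46 and 18.97 FPKM in aged controls and at 12.00, 10.58 and 11.16 FPKM in young controls. Groups overlapped for both genes between aged and young controls and between the libraries labelled Thbs1 knockout and the aged controls. Hk2 stayed between 0.16 and 0.56 FPKM in all libraries. Gpi1, the isomerase that follows, stood at 17.09, 22.83 and 19.11 FPKM in the libraries labelled Thbs1 knockout, at 20.78, 22.74 and 25.47 FPKM in aged controls and at 18.31, 17.16 and 18.22 FPKM in young controls. Its aged controls were above all young controls (limma adjusted p = 0.107).

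Phosphofructokinase, the regulated step, was mostly the liver-type subunit Pfkl. Pfkl stood at 25.14, 35.19 and 24.64 FPKM in the libraries labelled Thbs1 knockout, at 22.62, 26.71 and 35.04 FPKM in aged controls and at 21.30, 21.10 and 20.89 FPKM in young controls. The young controls were the lowest 3 of the 9 libraries, and the log2 fold change of aged over young controls was 0.38 ± 0.17 (SE, limma adjusted p = 0.184). The muscle subunit Pfkm stood at 5.52, 6.65 and 6.95 FPKM in the libraries labelled Thbs1 knockout, at 4.65, 6.15 and 6.48 FPKM in aged controls and at 6.61, 6.18 and 6.22 FPKM in young controls. The platelet subunit Pfkp stood at 9.66, 11.71 and 8.18 FPKM in the libraries labelled Thbs1 knockout, at 10.51, 9.98 and 9.81 FPKM in aged controls and at 10.16, 9.80 and 9.13 FPKM in young controls. Neither passed the test in a comparison that holds the aged controls (limma adjusted p = 0.546 to 0.851), and their groups overlapped.

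The relatives of Pfkfb3, which make or break down the same activator, did not share its order. Pfkfb4 stood at 1.05, 1.40 and 0.99 FPKM in the libraries labelled Thbs1 knockout, at 0.84, 1.31 and 1.75 FPKM in aged controls and at 1.32, 1.02 and 1.01 FPKM in young controls, overlapping in all comparisons. Pfkfb1, the form of liver and muscle, stood at 0.33, 1.20 and 0.41 FPKM in the libraries labelled Thbs1 knockout, at 0.54, 1.01 and 0.15 FPKM in aged controls and at 0.62, 0.73 and 0.63 FPKM in young controls. Pfkfb2, the form of heart, stood at 0.67, 0.30 and 0.62 FPKM in the libraries labelled Thbs1 knockout, at 0.45, 0.57 and 0.69 FPKM in aged controls and at 0.74, 0.70 and 0.74 FPKM in young controls. Pfkfb1 and Pfkfb2 were below the filter and not tested.

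The pyruvate dehydrogenase kinases, which keep pyruvate out of the citric acid cycle, summed to 51.1, 57.3 and 46.9 FPKM in the libraries labelled Thbs1 knockout, to 50.4, 51.9 and 50.2 FPKM in aged controls and to 56.4, 65.4 and 56.4 FPKM in young controls. Pdk1, a target of hypoxia-inducible factor, stood at 15.13, 17.71 and 13.37 FPKM in the libraries labelled Thbs1 knockout, at 12.73, 14.33 and 15.42 FPKM in aged controls and at 18.03, 19.30 and 17.81 FPKM in young controls. Pdk4, known to follow fasting and fatty acid supply, stood at 16.56, 17.35 and 11.76 FPKM in the libraries labelled Thbs1 knockout, at 14.06, 13.27 and 8.62 FPKM in aged controls and at 16.26, 22.19 and 17.52 FPKM in young controls. For both, every aged control was below every young control (log2 fold change -0.36 ± 0.12 SE for Pdk1 and -0.61 ± 0.20 SE for Pdk4, limma adjusted p = 0.0931 and 0.0956). Pdk2, the most widespread kinase, stood at 11.88, 11.71 and 13.17 FPKM in the libraries labelled Thbs1 knockout, at 12.27, 14.07 and 18.07 FPKM in aged controls and at 12.33, 14.06 and 11.86 FPKM in young controls. Pdk3 stood at 7.54, 10.49 and 8.63 FPKM in the libraries labelled Thbs1 knockout, at 11.31, 10.27 and 8.04 FPKM in aged controls and at 9.77, 9.82 and 9.19 FPKM in young controls. These last 2 overlapped between aged and young controls.

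No gene of pyruvate entry passed the test. Pdhb, the beta subunit of the first enzyme of the pyruvate dehydrogenase complex, stood at 26.31, 27.03 and 27.38 FPKM in the libraries labelled Thbs1 knockout, at 24.55, 27.65 and 27.44 FPKM in aged controls and at 25.68, 29.40 and 31.12 FPKM in young controls. Pdha1, its alpha subunit and the target of the kinases, stood at 12.71, 10.77 and 11.96 FPKM in the libraries labelled Thbs1 knockout, at 13.65, 13.63 and 13.26 FPKM in aged controls and at 15.83, 15.27 and 14.90 FPKM in young controls. The libraries labelled Thbs1 knockout held the 3 lowest values of Pdha1 and the young controls the 3 highest, and neither step passed the test (limma adjusted p = 0.235 for each neighbouring pair). The carrier subunits Mpc1 and Mpc2, which bring pyruvate into mitochondria, ranged from 2.87 to 4.64 FPKM and from 6.24 to 8.94 FPKM over all libraries and overlapped between aged and young controls.

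Between the libraries labelled Thbs1 knockout and the young controls, which differ in age as well as label, 0 of the 28 genes were called, against 0.0848% of all tested genes called as higher and 0.127% as lower. At an unadjusted p under 0.05 Ldha and Pfkl were higher, against 3% of all tested genes, and Pdha1 was lower, against 6.27%, and limma voom on recovered fragments also called 0. Ldha had means of 174.1 ± 14.7 FPKM in the libraries labelled Thbs1 knockout and 136.4 ± 3.90 FPKM in young controls (SD, n = 3 each, log2 fold change 0.35 ± 0.09 SE, limma adjusted p = 0.269). Pdha1 had means of 11.8 ± 0.978 FPKM in the libraries labelled Thbs1 knockout and 15.3 ± 0.468 FPKM in young controls (SD, n = 3 each, log2 fold change -0.35 ± 0.09 SE, limma adjusted p = 0.227). For Slc2a1 the 95% interval of the log2 fold change ran from -0.10 to 0.68 and for Pfkfb3 from -0.17 to 0.37. Without overlap 5 genes were higher, against 8.46% of all tested genes, and 3 were lower, against 14%.

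Shares within pairs of relatives do not depend on the scaling of a library. The exact permutation tests were run on log2 ratios of FPKM + 1 rather than on the shares, and for low genes such as Slc2a3 these ratios can depend on it. Of 14 pairs, 10 had both genes above a mean of 1 FPKM, giving 30 comparisons, and the smallest Benjamini-Hochberg value that the exact permutation test reached was 0.25. Ldhb made up 8.40%, 15.7% and 9.78% of the summed FPKM of Ldha and Ldhb in the libraries labelled Thbs1 knockout, 22.8%, 20.7% and 27.0% in aged controls and 14.4%, 16.7% and 15.7% in young controls. The aged controls held the 3 highest shares (two-sided exact permutation p = 0.1 against either other group). Slc2a3 made up 2.44%, 2.25% and 1.75% of the summed FPKM of both transporters in the libraries labelled Thbs1 knockout, 2.70%, 7.59% and 5.24% in aged controls and 3.92%, 2.90% and 4.61% in young controls. The libraries labelled Thbs1 knockout held the 3 lowest shares (exact permutation p = 0.1 against either other group). Pdk2 made up 44.0%, 39.8% and 49.6% of the summed FPKM of Pdk1 and Pdk2 in the libraries labelled Thbs1 knockout, 49.1%, 49.5% and 54.0% in aged controls and 40.6%, 42.1% and 40.0% in young controls. Aged and young controls did not overlap for Pdk2 (exact permutation p = 0.1).

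**Figure D4:**
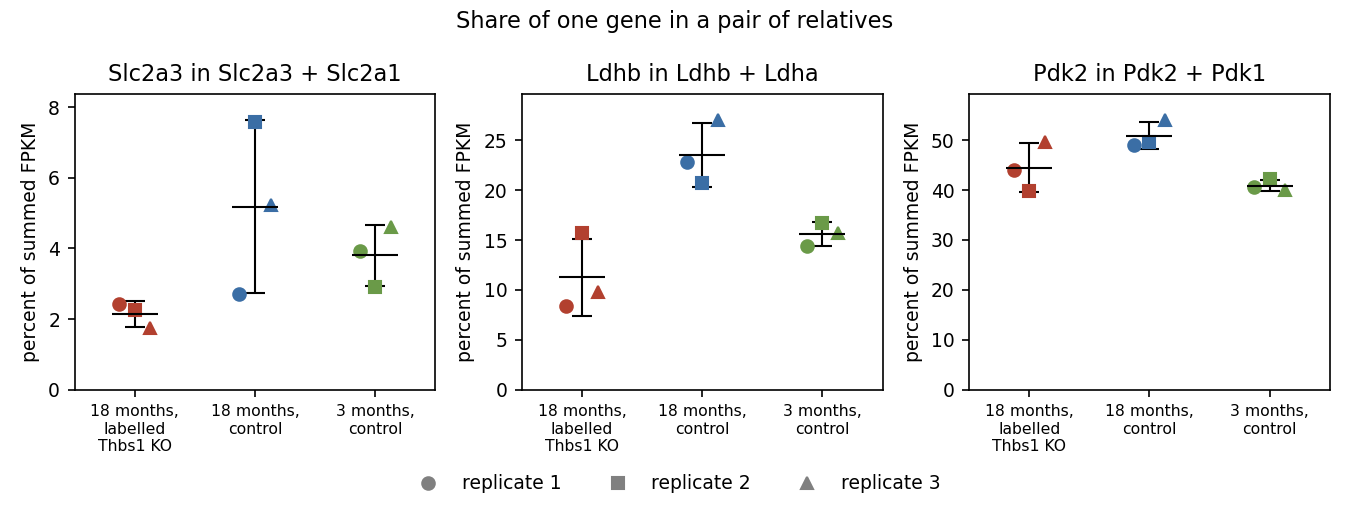
Percent of the summed FPKM of a pair of relatives (y axis) taken by Slc2a3, Ldhb and Pdk2 in each library of 3 groups (x axis), with mean ± SD (n = 3 each). The Ldhb share was 20.7% to 27.0% in aged controls and at most 16.7% in every other library.

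Other genes of the pathway that act beside the set were taken from lists made with the set. Bsg, the partner protein that carries monocarboxylate transporters to the membrane, was higher in aged controls (326.5 ± 35.6 FPKM) than in young controls (230.6 ± 5.40 FPKM; SD, n = 3 each, limma adjusted p = 0.0477).

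Among 17 tested regulators and hypoxia genes, 2 were lower in aged controls than in young controls (11.8%), against 2.8% of all tested genes, and 0 were higher, against 1.2%. Hif1a, the oxygen-regulated subunit of hypoxia-inducible factor, had 57.04, 65.12 and 57.08 FPKM in aged controls and 98.39, 96.62 and 89.46 FPKM in young controls (limma adjusted p = 0.032). Myc had 70.58, 52.48 and 62.50 FPKM in aged controls and 113.71, 107.15 and 97.08 FPKM in young controls (adjusted p = 0.0362). For both genes all aged controls were below all young controls.

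Against the aged controls, 3 regulators and hypoxia genes were higher in the libraries labelled Thbs1 knockout (17.6%), against 2.78% of all tested genes, and 0 were lower, against 2.01%. Myc stood at 157.68, 123.78 and 108.80 FPKM in the libraries labelled Thbs1 knockout (log2 fold change 1.05 ± 0.15 SE, limma adjusted p = 0.0065). P4ha1, a collagen prolyl hydroxylase subunit induced by hypoxia, had 26.32, 22.48 and 19.72 FPKM in the libraries labelled Thbs1 knockout and 13.51, 13.93 and 11.53 FPKM in aged controls (log2 fold change 0.76 ± 0.12 SE, adjusted p = 0.0101). The third was Vegfa (log2 fold change 0.58 ± 0.09 SE, adjusted p = 0.00706). Hif1a stood at 98.80, 76.67 and 74.88 FPKM in the libraries labelled Thbs1 knockout, above all 3 aged controls and short of the threshold (adjusted p = 0.0533).

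The rest of central carbon metabolism gave few calls. Of 18 citric acid cycle genes, Sdhc, a membrane subunit of succinate dehydrogenase, was lower in the libraries labelled Thbs1 knockout (54.8 ± 4.35 FPKM) than in aged controls (72.5 ± 3.93 FPKM; SD, n = 3 each, limma adjusted p = 0.0356), and 0 were called between aged and young controls. Of 7 pentose phosphate genes and 6 further genes of the pyruvate dehydrogenase complex, 0 were called in any of the 3 comparisons. The nearest was G6pdx, the entry enzyme of the pentose phosphate route, at 11.7 ± 0.809 FPKM in aged controls and 8.43 ± 0.542 FPKM in young controls (SD, n = 3 each, limma adjusted p = 0.0566). Counts at an unadjusted p under 0.05 in limma are given here with the share of all tested genes. In the libraries labelled Thbs1 knockout 3 of the 7 pentose phosphate genes were lower than in aged controls, against 11.3%, and 3 of the 18 citric acid cycle genes. Higher in aged than in young controls were 3 of the 7 pentose phosphate genes and 4 of the 18 citric acid cycle genes, against 10.2%. Lower in aged than in young controls were 1 of the 6 further complex genes and 1 of the 18 citric acid cycle genes, against 17.4%. Limma voom on recovered fragments called 1 citric acid cycle gene as lower in the libraries labelled Thbs1 knockout than in aged controls, against 2.23% of all genes. It called 0 in the other cases.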

How the data were processed

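RNA of sorted marrow endothelial cells was measured in 9 libraries made from 2 ng of RNA with SMART-Seq v4, per the labels' protocols. The authors deposited FPKM, rounded to 2 decimals, for 52183 genes, and depth was recovered from whole multiples in genes of 60 to 400 bases (99.5% to 99.8% of values whole within a tolerance of 0.1). FastQC 0.11.5, STAR and edgeR, with GRCm38 and mm10, were used per the submitters' processing notes. How fragments were assigned to genes, by strand or where a read fits several loci, is not given in the sources used here. All gene identifiers matched GENCODE M21 on GRCm38. No pair of libraries held identical values.

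Groups came from the labels. One fit of log2(FPKM + 1) over all 9 libraries in limma 3.58.1 (R 4.3.3; a mean per group, 6 residual degrees of freedom, eBayes with a trend) gave 3 comparisons of 11796 genes averaging at least 1 FPKM, adjusted by Benjamini-Hochberg at 0.05. A call is an adjusted p under 0.05. Log2 ratios of FPKM + 1 within pairs, and summed FPKM, were compared by two-sided exact permutation tests (scipy 1.17.1). The limma fit was tested on simulated data. The alternatives tried were other pseudocounts, filters and scalings, fits of the compared groups alone, robust eBayes, the replicate number as a block and each library left out. limma voom on back-calculated fragments was added after seeing the data. The genes, lists and tests were chosen with earlier results of these data known. Values by library are given for called genes, the highest gene of each role and every relative at a step, and of the other lists for called genes. Hif1a against the libraries labelled Thbs1 knockout, G6pdx, Tpi1, Pdha1, Igkc and Fcgr2b were chosen after their values were seen. Some genes of the further lists are not reported here.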

Additional observations from a re-analysis of the deposited data

How the results depend on the processing

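Between aged and young controls the set had 1 call. It had 4 in the fit of the compared groups alone (Pfkfb3 lower, and Aldoa, Tpi1 and Ldhb higher) and 0 with median-ratio scaling, with no filter, with a pseudocount of 5, with quantile normalization and with the replicate block, and 0 to 4 with each library left out in turn. Between the libraries labelled Thbs1 knockout and the aged controls it had 2 calls. It had 0 in the fit of the compared groups alone and 0 with no filter, and 1 with the replicate block (Pfkfb3, with Slc2a1 at an adjusted p of 0.0523). It had 0 to 5 with each library left out in turn, and 3 with a mean of at least 5 FPKM and with limma voom, where Ldhb was lower. Between the libraries labelled Thbs1 knockout and the young controls it had 0 calls in each of the 19 alternatives. The fit without a filter tested 36202 genes, and the fits of 2 groups have fewer libraries. For the other changes the cause was not tested. Over the 19 alternatives, Slc2a1 between the libraries labelled Thbs1 knockout and the aged controls was called in 12 (adjusted p = 0.0184 to 0.12) and Pfkfb3 in 13 (0.0151 to 0.102), and Pfkfb3 between aged and young controls in 7 (0.0369 to 0.175). None of the genes followed reversed a called direction. Myc, P4ha1 and Vegfa between the libraries labelled Thbs1 knockout and the aged controls were called in all 19, and Sdhc in 9. Between aged and young controls Hif1a was called in 14, Myc in 13 and Bsg in 9. Median-ratio scaling moved the calls of all genes between aged and young controls from 141 higher and 330 lower to 215 and 200. Replicate numbers are shared between groups by label only: deviations of same-numbered libraries correlated at -0.129 to 0.124, so the numbers were not taken as pairs, and the replicate block is given for completeness. Pair ratios used with a pseudocount of 0.1 moved for Slc16a3 over Slc16a1 between aged and young controls (log2 difference 0.82) and for Slc2a3 over Slc2a1 between the libraries labelled Thbs1 knockout and the young controls (-0.79). Slc16a3 was not tested with a mean of at least 5 FPKM.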
